A study of Betula luminifera with 2 samples.

Results

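miR172 is a conserved plant microRNA (miRNA) family, and its sequences and degradome sites in the birch Betula luminifera were taken as every miRBase-matched entry named miR172 or MIR172, with any prefix or suffix, and every deposited target alignment of such an entry. The rule gave 6 of 199 matched entries, which held 4 of the 505 distinct sequences in the small RNA table. It also gave 14 of 108 target alignments, at 5 of the 69 distinct degradome positions. These positions lay on 5 transcripts of 4 assembly clusters, since CL3444.Contig1 and CL3444.Contig2 belong to the same cluster. The plants were seedlings of clone G49#, 2 months old and raised in tissue culture, with no treatment or genotype contrast. RNA of root, stem and leaf was pooled in equal amounts, and differences between organs could not be measured. The pool gave 1 small RNA library, with 607592 reads over its listed miRNAs, and 1 degradome library, with 138872 reads over 64 listed transcripts, counting a read in full on each contig that holds it. The degradome collects the 5′ ends of cleaved polyadenylated RNA. With 1 library of each kind there was no replicate check, and the 95% intervals below are exact (Poisson for a number of reads, Clopper-Pearson for a share) and cover counting error only, since amplified reads without molecular identifiers do not stand for separate molecules.

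In plants studied in detail, mature miR172 comes from the 3′ arm of its hairpin and pairs with a site in mRNAs of AP2-like transcription factors, which control floral organ identity and the timing of flowering. In Arabidopsis it acts both by cutting these mRNAs and by blocking their translation, and the degradome can see only the cutting. In Arabidopsis and maize, miR156 is high in juvenile shoots and miR172 rises as the plant ages. The birch transcripts carry assembly names only, so whether the targets below are AP2-like genes was not analysed here.

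The family consisted of 3 sequences from the 3′ arm and 1 from the 5′ arm. They are shown because they differ at their ends, where pairing with the targets also differs. Capitals mark the seed, bases 2 to 8 counted from the 5′ end.
main form, 3′ arm: aGAATCTTgatgatgctgctt
unplaced form, 3′ arm: gGAATCTTgatgatgctgcat
shifted form, 3′ arm: gAATCTTGatgatgctgcttc
5′-arm form: gCAGCATCattaagattcac
The main and unplaced forms shared the seed GAATCTT and differed by A1G and T20A, written as the main form's base, the position and the unplaced form's base. The shifted form is the main form moved by 1 nt toward the 3′ end, which gives it another seed. No listed sequence outside the family, candidates included, had the seed of any of these sequences. The unplaced form was listed under 3 names, of which gma-miR172i-3p of soybean was an exact match in miRBase.

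The target sites are shown because they fall into 2 types. The capital marks the listed cleavage position, the first base of the downstream fragment.
CL831.Contig13, positions 935 to 955: cugcagcaucaUcaggauucu
Unigene11385, positions 1130 to 1150: cugcagcaucaUcaggauucu
Unigene24020, positions 2 to 22: cugcagcaucaUcaggauucc
CL3444.Contig1, positions 433 to 452: gggaauguuaAuggugcugu
CL3444.Contig2, positions 1757 to 1776: gggaauguuaAuggugcugu
The first 3 sites pair with the 3′-arm forms. The sites of CL831.Contig13 and Unigene11385 were identical over 21 bases, and that of Unigene24020 differed from them by U21C, counted from the 5′ end of the site. The CL3444 site was listed for the 5′-arm form alone.

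Reads of the family were few and came almost entirely from the main form. The main form had 37 reads (26.1 to 51.0). The 5′-arm form had 3 reads (0.619 to 8.77), the unplaced form 2 (0.242 to 7.22) and the shifted form 1 (0.0253 to 5.57). The interval of the main form lay above the other 3, whose intervals overlapped. The main form thus held 86.0% of the 43 family reads (72.1 to 94.7%). Over the 14 matched families with at least 4 distinct sequences, miR172 included, the share of the most-read sequence had a median of 88.0% and ran between 51.0 and 99.6%. It was lower than in miR172 in 5 of these families. The 3′ arm, the usual source of mature miR172, gave 40 of the 43 reads (93.0%, 80.9 to 98.5%). All 3′-arm forms were 21 nt long and the 5′-arm form 20 nt. None of the 4 sequences began with T, against 57.5% of the 179 distinct matched sequences. The other 3′-arm forms differ from the main form only by 2 substitutions or a shift of 1 nt. With so few and such similar sequences this share does not set the family apart.

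**Figure D1:**
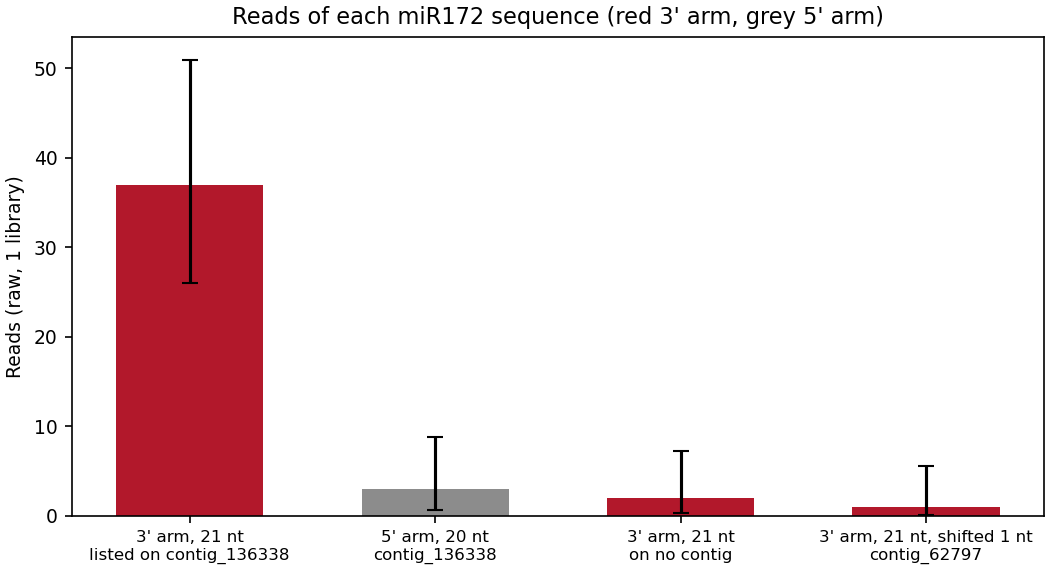
Raw reads (vertical axis) of each of the 4 miR172 sequences in the single small RNA library. Bars start at 0 and whiskers are exact 95% Poisson intervals. The main form with 37 reads stands above the others, which had 3, 2 and 1.

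Genomic precursors were listed on 2 contigs, both on the minus strand, and they are shown because the main form fits them unequally. Neither the genome build nor a gene annotation of the contigs is given in the sources used here. Capitals mark the 5′-arm form and the 21 bases that align with the main form.
contig_136338, 1083 to 1233: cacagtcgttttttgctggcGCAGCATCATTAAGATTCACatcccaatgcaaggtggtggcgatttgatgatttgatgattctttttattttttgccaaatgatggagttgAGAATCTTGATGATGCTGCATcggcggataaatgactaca
contig_62797, 821 to 957: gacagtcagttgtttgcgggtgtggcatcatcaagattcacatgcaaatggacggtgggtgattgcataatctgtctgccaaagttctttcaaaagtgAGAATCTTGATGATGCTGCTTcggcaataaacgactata
The deposited table placed the main form on contig_136338, where it has 1 mismatch, A20T, written as the contig's base, the position in the read and the read's base. On contig_62797 it matched without a mismatch, although the table listed only the shifted form, with 1 read, there. The 5′-arm form matched contig_136338 exactly and had 3 mismatches to contig_62797. The unplaced form differed from contig_136338 by A1G and had 2 mismatches to contig_62797. No listed read sequence therefore equalled the 3′-arm stretch of contig_136338. From which contig the 37 reads came was not tested.

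Forms of both arms were listed on contig_136338, but only the 5′-arm form matched it exactly. In the deposited structure 18 of the 20 bases of the 5′-arm form paired with the contig's stretch that aligns with the main form. Between the arms lay 71 nt. Measured from the paired ends, the 3′ end of that stretch extended 2 nt beyond the first base of the 5′-arm form. The 3′ end of the 5′-arm form extended 1 nt beyond the first base of the stretch. Whether the main form was cut from this contig was not tested. Products of Dicer-like enzymes, which cut miRNA duplexes out of hairpins, typically carry short 3′ overhangs. No listed read sequence equalled the contig's 3′-arm stretch, so the duplex described here was not seen as reads. The folding energy was -59.5 kcal/mol on contig_136338 and -52.7 on contig_62797. The folding energy index, which scales that energy by precursor length and by GC percentage, was 1 and 0.9, beside a median of 1 over the 52 distinct matched precursors placed on a contig. The table nevertheless filed the entry of contig_62797 in a class whose genomic surroundings need not form a hairpin. In the deposited structures 18 of the 21 bases of the main form's window were paired on contig_136338 and 16 on contig_62797. RNAfold paired 19 of the 21 on each contig.

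Among the 84 matched families miR172 ranked 34th by reads. Its 43 reads (31.1 to 57.9) were 0.00718% of the 598935 matched reads (0.0052 to 0.00967%), and 0.0503% without the single most-read sequence of the table, which belongs to miR166. The families next to it were miR479 with 50 reads (37.1 to 65.9), miR477 with 49 (36.3 to 64.8), miR403 with 34 (23.5 to 47.5) and miR535 with 20 (12.2 to 30.9). They were named because their numbers of reads are nearest to miR172, over 1 library. The intervals of miR479, miR477 and miR403 overlapped that of miR172, and that of miR535 did not. miR403 targets an Argonaute mRNA in Arabidopsis, and miR535 is a relative of miR156.

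All 7 other families of the flowering and phase change list had more reads than miR172, which ranked 34th of the 84 matched families. Among families with sequences placed on a contig miR172 ranked 23rd of 24, so most families there had more reads too. miR156, which holds back SPL transcription factors in juvenile shoots, had 18801.5 reads, 437 times the number of miR172. miR319 and miR159, sister families that target TCP and MYB genes, had 4754.5 and 123.5 reads. miR171, which targets GRAS transcription factors, had 991.8 reads. miR169, which targets NF-YA genes, had 182. miR390, which starts the production of small RNAs against auxin response factors, had 3.84 times the reads of miR172. miR399, a regulator of phosphate balance, had 87 reads (69.7 to 107), the nearest of the list, and its interval did not overlap that of miR172. These are numbers of reads in 1 pool of 3 organs at 1 age, so no change with age or organ could be read from them. How far the reads of different miRNAs reflect their amounts was not tested.

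**Figure D2:**
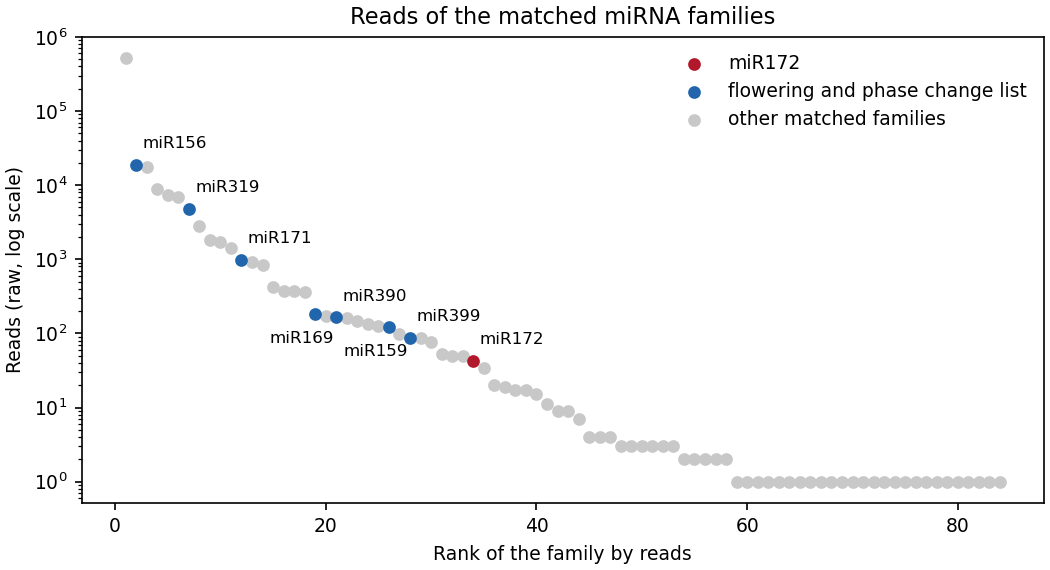
Raw reads on a log scale (vertical axis) of the 84 matched families against their rank (horizontal axis), for miR172, the flowering and phase change list and the other families. miR172 stands at rank 34 with 43 reads, and every family of the list lies to its left with more reads.

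At CL831.Contig13, a transcript of 1366 nt, the listed miR172 position was the deepest point of the degradome profile. Position 946 held 63 reads, and all of them matched that place alone. The position next in reads, 278, held 24, which were shared with other places and came to 2.4 when divided by matches. The next by divided reads was position 823 with 18. The median listed position of the transcript had 7 reads. Position 946 therefore held 2.63 times the reads of the next position, or 12.7% of the 498 reads on the transcript (9.86 to 15.9%).

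Reads of CL831.Contig13 were shared unevenly along its length, which sets how large that share appears. At 38 of its 64 positions no read matched 1 place alone, and a read there matched up to 10 places. The last such position was 915, upstream of the site. The 11 positions beyond it held 131 reads, all on 1 place. Of the 236 reads that matched 1 place alone, position 946 held 26.7% (21.2 to 32.8%), and of all reads divided by matches it held 23.8%. No read began at the bases on either side of position 946. Within the site, 16 reads began at position 954, opposite base 2 of the miRNA, and the nearest upstream position was 930 with 1 read. In all, 368 reads began upstream of position 946 and 67 downstream.

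In the authors' deposited table position 946 was of category 0, which in all 53 cases on the listed transcripts was the single highest position by divided reads. This was the case for 1 of the 5 miR172 positions, against 33.3% of the 69 positions of all miRNAs. Contigs of a cluster count separately in these shares, and by cluster it was 1 of 4 for miR172. The authors' deposited table gave it a p-value of 0.0124 for the main form and 0.00924 for the unplaced form. A p-value of at most 0.05 was likewise listed for 1 of the 5 positions, against 39.1% of all 69. The listed position was the highest on its transcript by reads counted in full for 1 of 5, against 39.1% of all. With so few members these shares do not set the family apart. Among the 23 category 0 positions in the authors' deposited table, that of miR172 ranked 13th by reads, where the median was 81, and 20th by share of the transcript, where the median was 41.4%.

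Unigene11385 carried the same 21 bases without such a peak. Position 1141 of its 1575 nt held 11 reads, all on 1 place, or 1.07% of the 1025 reads on the transcript (0.537 to 1.91%). Reads were more numerous at 26 of the 145 listed positions, and positions 1260 and 1292 had the most, with 25 each. The median listed position had 7 reads. The nearest other reads began 31 nt upstream and 76 nt downstream. Neighbouring positions on this transcript lay a median of 5 nt and at most 100 nt apart. The authors' deposited table gave it category 2 and p-values of 0.294 for the main form and 0.227 for the unplaced form. The 24 category 2 positions in the authors' deposited table had a median of 12.5 reads.

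Unigene24020 was a fragment of 265 nt that began 1 base before the site. Position 13 held 5 of its 67 reads (7.46%, 2.47 to 16.6%), all on 1 place. It was the first position with any read, and the next lay 22 nt downstream with 1 read. Reads were more numerous at 6 of the 13 positions, led by position 102 with 12 and position 107 with 11. The authors' deposited table gave position 13 category 2 and p-values of 0.594 for the main form and 0.347 for the unplaced form. Any degradome ends upstream of the site are beyond this fragment and were not analysed here.

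Pairing of the 3′-arm forms with these sites differed at their ends. With CL831.Contig13 and Unigene11385 the main form had 18 pairs, a G-U pair at base 7 and mismatches at bases 20 and 21, counted from the 5′ end of the miRNA. The unplaced form, with T20A, paired at base 20 and had 18 pairs, G-U pairs at bases 1 and 7 and a mismatch at base 21. With Unigene24020 the unplaced form had 19 pairs and the main form 17. The last base of that site, set by U21C, faces base 1 of the miRNA. There the unplaced form paired and the main form had a mismatch. The same held at base 20, as on the other sites. The authors' deposited table scored these alignments 3 and 2.5 for the main and unplaced forms on CL831.Contig13 and Unigene11385, and 4 and 2 on Unigene24020. A lower score is a closer match, so the form with 37 reads had the weaker score at each site, and the form with 2 reads the better one. Both forms were listed at the same positions, so the degradome reads could not be divided between them. The shifted form had no listed target. A listed target was thus found for 3 of the 4 sequences, against 31.3% of the 179 distinct matched sequences. Of these 3, the main and unplaced forms share their sites, and the 5′-arm form was listed only at the CL3444 site. With so few sequences the share does not set the family apart.

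The site on the CL3444 contigs did not stand out from the reads around it. The listed position held 3 reads on each contig, and none of them matched 1 place alone. They made up 0.163% of 1845 reads on CL3444.Contig1 (0.0335 to 0.474%) and 0.13% of 2301 reads on CL3444.Contig2 (0.0269 to 0.381%). All 210 positions of CL3444.Contig1 recurred at the same distance from the site on CL3444.Contig2 with the same reads, so the contigs give a single signal. Within 10 nt of the listed position there were 5 other positions with reads. Each of the 5 had more reads than the listed position, with up to 15. The highest position on CL3444.Contig1 was 417, with 47 reads. The 5′-arm form had 16 pairs, G-U pairs at bases 1 and 7 and mismatches at bases 14 and 19. The authors' deposited table gave the site a score of 3.5, category 3 and a p-value of 0.414. At 3 reads cleavage could not be told from the reads around it at this depth.

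**Figure D3:**
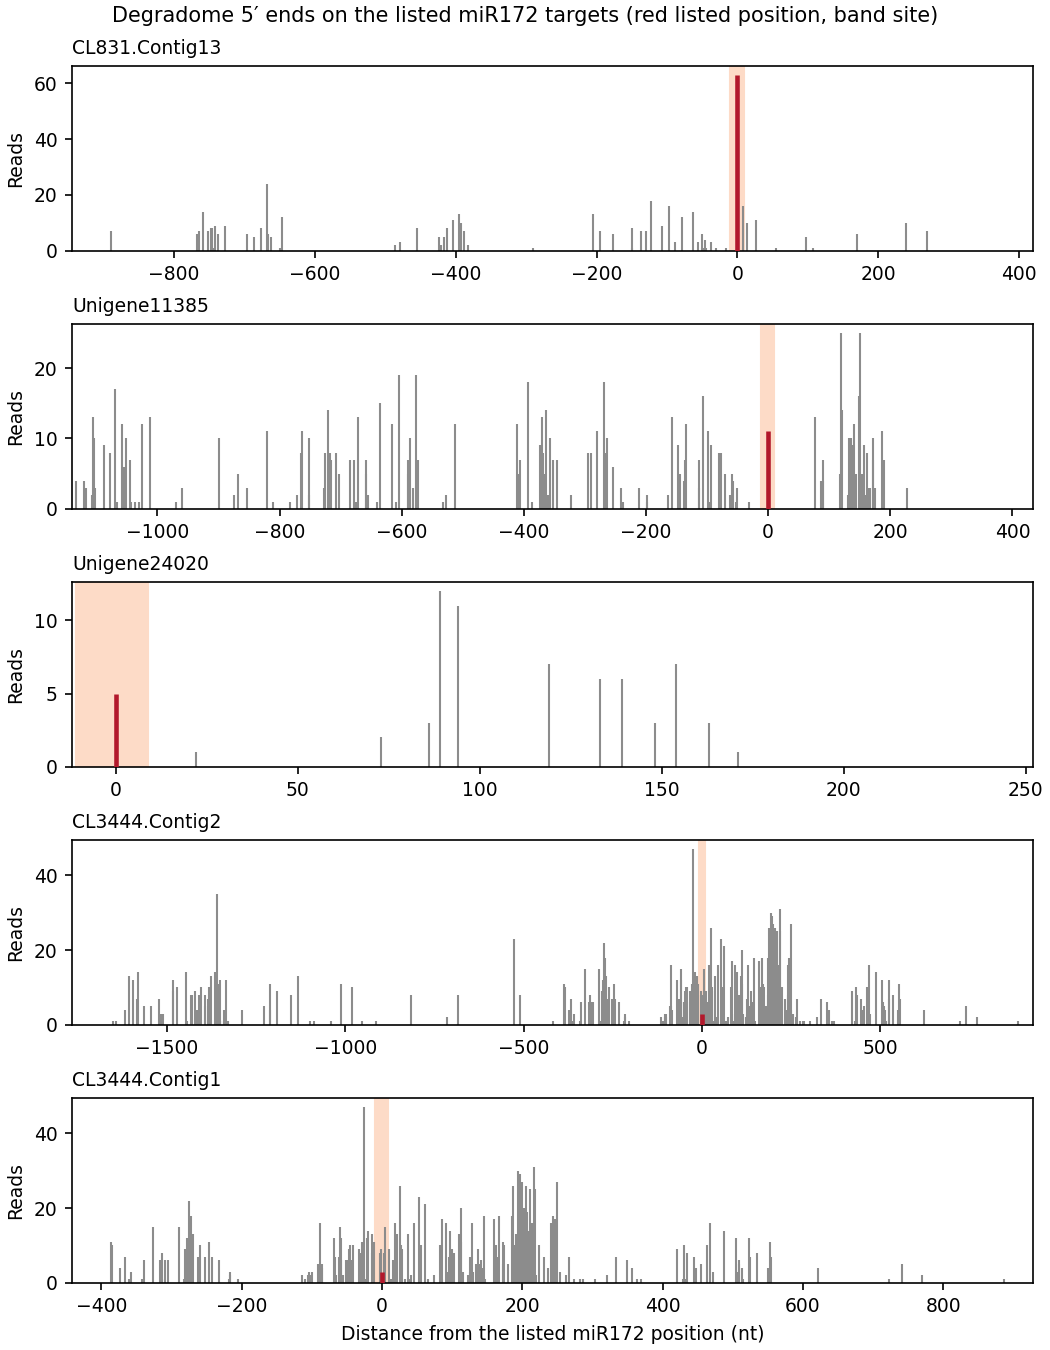
Degradome reads counted in full (vertical axes) by distance in nt from the listed miR172 position (horizontal axes) on the 5 transcripts, each panel spanning the transcript. The listed position is red and the site is the shaded band. It is the highest line on CL831.Contig13 (63 reads), and is below other positions on Unigene11385 (11), Unigene24020 (5) and both CL3444 contigs (3 each).

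All 5 positions lay opposite base 10 of the miRNA, where plant Argonaute proteins usually cut. So did all 52 ungapped pairs of a miRNA or family with a position in the table, and gapped alignments were not examined for this. With no other placement listed, lying opposite base 10 could not tell cleaved sites from other reads. No other miRNA was listed on any of the 5 transcripts. The 3 listed positions of the 3′-arm forms together held 79 degradome reads, and 63 of them were at position 946 of CL831.Contig13.

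Set beside the small RNA library, miR172 had few miRNA reads and a middling degradome position. Among the 23 matched families with a listed position it ranked 17th by small RNA reads, with 43 against a median of 134 over these families. It ranked 11th by its deepest position, with 63 reads against a median of 47. Of the 6 families with fewer small RNA reads, 1 had a deeper position. That family was miR828, with 1819 reads. A deepest position is a maximum, which can only rise with the number of listed positions. miR172 had 5 listed positions, miR828 had 2, and each of the other families with fewer small RNA reads had 1. miR166, with 520200 small RNA reads, had 42 at its deepest position, fewer than miR172. The amounts of each target transcript were not measured, so a degradome read number is not a rate of cleavage.

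**Figure D4:**
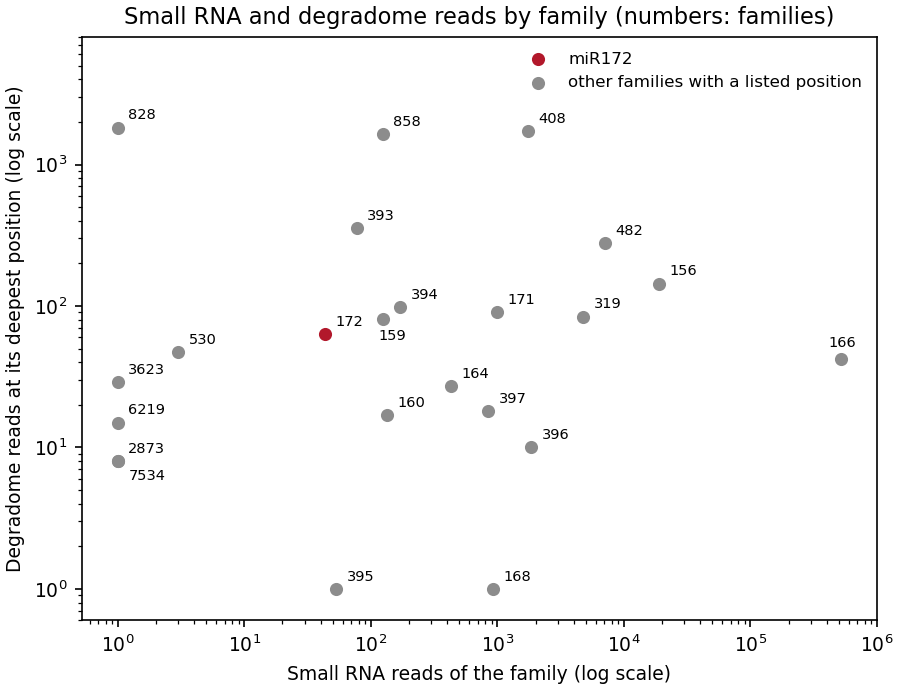
Degradome reads at the deepest listed position of a family (vertical axis, log scale) against its small RNA reads (horizontal axis, log scale) for the 23 matched families with a listed position, each labelled by its family number. miR172 lies at 43 small RNA reads and 63 degradome reads.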

How the data were processed

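Total RNA was extracted with Trizol, and a small RNA library (TruSeq Small RNA kit) and a degradome library from poly(A) RNA were made, per the labels' protocols. Small RNA values are raw reads of each miRNA entry, per the file headers. Reads matching several entries were divided among them in the values the authors deposited, so these are expected counts. They were summed over the entries of a sequence, and fractional sums are rounded for display. Sister names were merged, so that miR156 includes miR157, miR166 includes miR165, miR171 includes miR170 and miR482 includes miR2118. The folding energy and index are scores deposited by the authors. No aligner, target caller or genome build is named in the labels or file headers.

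The degradome columns are unnamed. Judged by their values, they hold the position, reads counted in full, the same reads divided by the number of places matched, reads on 1 place alone, and the category. The category definitions were checked against the values: 53 of 53 positions of category 0 were the single highest by divided reads, 14 of 17 of category 1 were tied highest, 1110 of 1110 of category 4 had 1 read, and categories 2 and 3 split at the median in 94.3% of 8530 positions. Alignment scores deposited by the authors were recomputed with 1 per mismatch and 0.5 per G-U pair, doubled at bases 2 to 13, which gave the deposited value in 84 of 84 ungapped alignments.

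Every miR172 sequence and target was named. Other families were the 2 nearest in reads on each side and a flowering and phase change list (miR156, miR159, miR169, miR171, miR319, miR390, miR399), with miR166 and miR828 added after their values were seen, as was the window of 10 nt around the CL3444 site. Members and lists were chosen with earlier results of these data known. With 1 library per table no test between samples was made. Alternatives covered read minimum, placement, arm, end variants, family merging, category, p-value, score, read sharing, a wider position and refolding with RNAfold 2.7.2. Python 3.11.15, NumPy 2.4.6, SciPy 1.17.1 and matplotlib 3.10.9 were used.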

Additional observations from a re-analysis of the deposited data

How the results depend on the processing

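No paired analysis was possible because each table holds 1 library and no comparison came from a test. Of 30 alternative values, 23 stayed within the interval of the value reported, or for counts and ranks within 1.5 times it and for folding indices within rounding, and 7 moved. The share of the main form was 100% among sequences of at least 10 reads, since no other form is left. The share of matched reads was 0.0503% without the most-read sequence of the table. The number of target clusters was 1, against 4 reported, both at category 0 and at a p-value of at most 0.05. The share at position 946 of CL831.Contig13 was 23.8% with reads divided by matches and 26.7% with reads on 1 place alone. On CL3444.Contig2 that last share was 0 of 456 reads, or 0%, and was counted as having moved. This 0 was fixed in advance. The last position with a read on 1 place alone was 1350, and none from 1381 on, the site included, had any. The upper limit, taken as 3 reads of 456 and not as an exact interval, was 0.658% and says nothing about the site. On CL3444.Contig1 the share had no value because every read was shared. Among families with sequences placed on a contig miR172 ranked 23rd of 24, against 34th of 84 among all. This rank was counted as having stayed, because the number of families did not enter the comparison. The family total of 43 reads and the 3 to 11 degradome reads at 4 of the positions set the precision.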
